A study of Mus musculus with 12 samples.

Results

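Hypothalamic RNA of mice with obesity that received aged garlic extract or curcumin was compared with that of lean control mice. The treated side held 3 libraries pooled as 1 group, 2 of mice given aged garlic extract (Ob + EAE) and 1 of a mouse given curcumin (Ob + CUR). The other side held the 3 control libraries (C), so 6 of the 12 libraries of the series were used. All mice were male C57BL/6. The treated mice ate a high-fat diet (HFD) with 60% of its energy from fat for 8 weeks, starting at 8 weeks of age. They were gavaged daily for 28 days from 16 weeks of age with 200 mg/kg aged garlic extract or 50 mg/kg curcumin. The sources differ on whether the HFD went on during gavage. Control mice ate standard chow and were gavaged with vehicle alone. The treated mice therefore differed from C in diet as well as in compound, and the effects of the diet and of the compounds cannot be told apart in this comparison. The other 6 libraries, of mice on the HFD given vehicle (Ob) or resveratrol (Ob + RSV), were used here for their levels and to share the spread in a wider fit. The paper on the series does not report on the 3 treated libraries.

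Aged garlic extract is a garlic preparation rich in water-soluble sulfur compounds such as S-allyl cysteine, and curcumin is the yellow polyphenol of turmeric. Both are studied as antioxidants and as dampeners of the NF-kB and TNF signals that accompany an HFD. The hypothalamus controls feeding, body temperature, water balance and daily rhythm through neurons that release peptides. Its capillaries are lined by endothelial cells that form the blood-brain barrier and are wrapped by pericytes, and its ventricle is lined by ependymal cells with beating cilia and by tanycytes. A sample of whole tissue holds all of these cells, so a gene found at a lower level can come from fewer cells of a type or from less RNA per cell, and these cannot be told apart.

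The 3 libraries of C held 17575625 to 23470800 counted reads and the treated ones 21120304 to 23273359. In all, 31641 genes with at least 10 reads in total were tested. Libraries of C stood further apart from each other than the treated ones did. Their variance over genes with at least 100 reads was 11.5 to 31.1 times the sampling noise for the 3 pairs of C, 4.51 to 6.33 times for the 3 treated pairs and 7.83 to 49.4 times for the 9 pairs of a C and a treated library, so no library was a copy of another. C replicate 2 had the fewest genes detected, 25979 against 29175 to 38081 in the other 5. C replicate 3 lay beyond both other C libraries by more than 1 log2 unit in 358 of 11171 genes, against 20 for C replicate 1 and 19 for C replicate 2. The most abundant transcript in all 6 libraries was mt-Co1, a subunit of cytochrome oxidase encoded by the mitochondrial genome, with 1.47 to 1.96% of the reads in C and 1.14 to 1.18% in the treated libraries. The tissue label was checked against markers of the hypothalamus. Summed over 25 hypothalamic patterning factors, levels were 387 to 468 counts per 1000000 counted reads (CPM) in C and 454 to 492 CPM in the treated libraries, whereas the peptides oxytocin, vasopressin and orexin were nearly missing from the Ob + CUR library, as described further on.

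Between the treated libraries and C, 116 genes were called, which is 0.367% of the genes tested. A call needed an adjusted p (Benjamini-Hochberg, edgeR quasi-likelihood test) below 0.05 together with a log2FC beyond 1 upward or downward. Of these, 45 were higher (0.142%) and 71 were lower (0.224%) in the treated libraries. By adjusted p alone, 61 genes were higher (0.193%) and 225 lower (0.711%). The median log2FC of all genes tested was 0.0017. All 116 genes had treated libraries that did not overlap with C, as had 7994 genes in all (25.3%). Of the 45 higher genes, 42 were also above all 6 libraries of Ob and Ob + RSV, as were 3466 of all genes tested (11.0%), and 42 of the 71 lower genes were below them, as were 1760 of all genes (5.56%). Of the called genes, 81 were protein-coding and 25 were processed pseudogenes, 24 of them lower.

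The number of calls rested on single libraries. It was 29, 26 and 266 without C replicate 1, 2 or 3, and 26, 13 and 22 without Ob + EAE replicate 1, Ob + EAE replicate 2 or Ob + CUR. All 116 genes kept their sign in these 6 fits, 12 were called in every one and 14 in none. In a fit of all 12 libraries with the same contrast, in which the spread of Ob and Ob + RSV also counts, 13 genes were called, 11 higher and 2 lower.

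**Figure D1:**
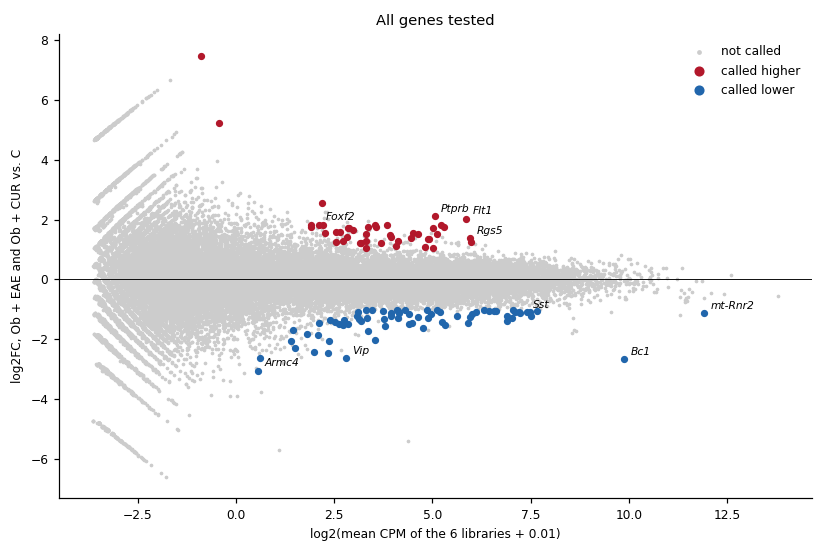
Each point is 1 of the 31641 genes tested, with the log2 of its mean CPM in the 6 libraries on the x axis and its log2FC between the 3 treated libraries and the 3 of C on the y axis. The 45 genes called higher are red and the 71 called lower are blue, and Ptprb and Flt1 stand out among the abundant higher genes and Bc1 and mt-Rnr2 among the abundant lower ones.

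Genes of blood vessels made up the leading group of increases. The gene lists used here and below were chosen with earlier results of these data known, so their counts are not independent support. Of 26 genes of blood vessels and the blood-brain barrier, 10 were called higher and 0 lower, against 0.142% of all genes called higher. Of the 26, 21 had a log2FC above 0, and the median log2FC of the list was 0.84, against 0.0017 for all genes. The summed level of the 26 genes was 1131 to 1360 CPM in C and 1480 to 1633 CPM in the treated libraries. In the libraries of Ob and Ob + RSV the same sum was 1034 to 1451 CPM.

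The growth factor receptors of endothelial cells rose together. Flt1, a receptor of vascular endothelial growth factor (VEGF), was counted at 22.9, 17.01 and 27.3 CPM in C, 86.2 and 95.05 CPM in Ob + EAE and 101 CPM in Ob + CUR. All treated libraries were thus above all C libraries, and the increase was 4.08-fold (log2FC 2.03, SE 0.17, adjusted p = 0.000759). In Ob and Ob + RSV, Flt1 lay at 12.8 to 40.3 CPM, below every treated library. Kdr, the main signaling receptor of VEGF, had 6.13, 7.68 and 4.89 CPM in C, 22.2 and 21.2 CPM in Ob + EAE and 24.7 CPM in Ob + CUR (log2FC 1.83, SE 0.21, adjusted p = 0.00457). Flt4, the VEGF receptor best known from lymphatic vessels, was low throughout, at 1.70, 0.683 and 1.44 CPM in C, 5.35 and 7.29 CPM in Ob + EAE and 10.9 CPM in Ob + CUR (log2FC 2.56, SE 0.39, adjusted p = 0.0168). The angiopoietin receptor Tek and its partner Tie1 moved alike. Tie1 had 4.39, 5.69 and 5.27 CPM in C, 18.4 and 17.97 CPM in Ob + EAE and 18.6 CPM in Ob + CUR (log2FC 1.80, SE 0.19, adjusted p = 0.00233). Tek had a log2FC of 1.75 (adjusted p = 0.0146). Ptprb, the phosphatase that acts on Tek, shared the lowest adjusted p of the increases with Cxcl12, at 13.6, 12.2 and 10.7 CPM in C, 48.1 and 60.04 CPM in Ob + EAE and 54.9 CPM in Ob + CUR, a 4.33-fold rise (log2FC 2.12, SE 0.16, adjusted p = 0.000742).

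Some transporters of the blood-brain barrier were called higher as well, whereas the barrier transporters Slc2a1 and Mfsd2a were not. Slco1a4, a carrier of organic anions, had 13.1, 13.9 and 21.5 CPM in C, 56.1 and 54.8 CPM in Ob + EAE and 64.2 CPM in Ob + CUR (log2FC 1.82, SE 0.18, adjusted p = 0.00233). Abcb1a, the efflux pump P-glycoprotein, had 13.7, 11.8 and 11.9 CPM in C, 33.1 and 37.2 CPM in Ob + EAE and 40.3 CPM in Ob + CUR (log2FC 1.52, SE 0.16, adjusted p = 0.00233). The thyroid hormone carrier Slco1c1 rose 2.09-fold (log2FC 1.06, adjusted p = 0.0104) and the iron exporter Slc40a1 rose 2.3-fold (log2FC 1.20, adjusted p = 0.0357). These 4 are named because they passed. Among surface proteins of endothelial cells, Eng, a co-receptor for TGF-beta ligands, had 11.3, 11.04 and 11.8 CPM in C, 32.7 and 32.9 CPM in Ob + EAE and 37.2 CPM in Ob + CUR (log2FC 1.55, SE 0.15, adjusted p = 0.00153). Pecam1 (log2FC 1.42, adjusted p = 0.0185), Podxl (log2FC 1.36, adjusted p = 0.00547), Cd93 (log2FC 1.57, adjusted p = 0.0205), Robo4 (log2FC 1.28, adjusted p = 0.0264), Adgrf5 (log2FC 1.73, adjusted p = 0.00667) and Adgrl4 (log2FC 1.23, adjusted p = 0.019) were also called. The mechanically gated channel Piezo1 rose 3.53-fold (log2FC 1.82, adjusted p = 0.0246) from a low level, at 2.51, 2.10 and 1.39 CPM in C, 6.25 and 7.48 CPM in Ob + EAE and 8.25 CPM in Ob + CUR.

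Transcription factors of the vessel wall followed. Foxf2, which is expressed in brain pericytes, had 1.45, 2.22 and 1.97 CPM in C, 6.58 and 7.15 CPM in Ob + EAE and 6.79 CPM in Ob + CUR (log2FC 1.83, SE 0.28, adjusted p = 0.0168). The endothelial factors Erg (log2FC 1.75, adjusted p = 0.0402), Ets1 (log2FC 1.74, adjusted p = 0.0102), Sox17 (log2FC 1.70, adjusted p = 0.019) and Sox18 (log2FC 1.26, adjusted p = 0.0377) were called higher. Of the genes of pericytes and smooth muscle, Rgs5 had 35.6, 25.3 and 40.8 CPM in C, 87.6 and 86.7 CPM in Ob + EAE and 97.9 CPM in Ob + CUR (log2FC 1.38, SE 0.17, adjusted p = 0.00706). The contractile proteins Acta2 (log2FC 1.40, adjusted p = 0.0357) and Myh11 (log2FC 1.73, adjusted p = 0.0135) and the kinase Mylk (log2FC 1.03, adjusted p = 0.0419) passed as well. Cxcl12, a chemokine made by vessels and other cells, had 17.3, 17.4 and 18.5 CPM in C, 53.2 and 62.7 CPM in Ob + EAE and 67.8 CPM in Ob + CUR. Its 3 C libraries lay close together (log2FC 1.75, SE 0.14, adjusted p = 0.000742). The basement membrane protein Hspg2 (log2FC 1.10, adjusted p = 0.0158) and the receptor Notch1 (log2FC 1.37, adjusted p = 0.0415) had smaller increases. For Notch1, C replicate 3 was lowest, at 9.20 CPM against 20.1 and 19.7 CPM in the other C libraries.

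The vessel genes did not all rise. The junction proteins Cldn5 (log2FC 1.29, adjusted p = 0.0816) and Cdh5 (log2FC 1.96, adjusted p = 0.0627) had large differences that missed the threshold, and Ocln missed it too (log2FC 0.90, adjusted p = 0.19). The glucose transporter Slc2a1 (log2FC 0.32, adjusted p = 0.514), the lipid transporter Mfsd2a (log2FC -0.03, adjusted p = 0.98), and Bsg (log2FC -0.16, adjusted p = 0.605) were not called. The endothelial surface proteins Ly6c1 (log2FC 0.01, adjusted p = 0.983) and Ly6a (log2FC 0.23, adjusted p = 0.663) and the pericyte genes Pdgfrb (log2FC 0.47, adjusted p = 0.27), Kcnj8 (log2FC -0.01, adjusted p = 0.992) and Vtn (log2FC -0.17, adjusted p = 0.685) were not called either. Genes of red cells had no call among 8, with summed levels of 229 to 390.2 CPM in C and 298 to 405 CPM in the treated libraries, so levels of blood genes overlapped between the groups. The called vessel genes were not equally stable. Flt1, Ptprb, Tie1, Slco1a4, Abcb1a, Eng and Cxcl12 were called without any 1 of the 6 libraries, whereas Tek, Pecam1, Myh11, Acta2, Foxf2 and Flt4 were called in only 1 of the 6 fits that leave out a library. In the fit of 12 libraries, Flt1, Ptprb, Kdr, Slco1a4, Abcb1a, Eng, Adgrf5, Podxl and Rgs5 were among the 11 genes called higher.

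**Figure D2:**
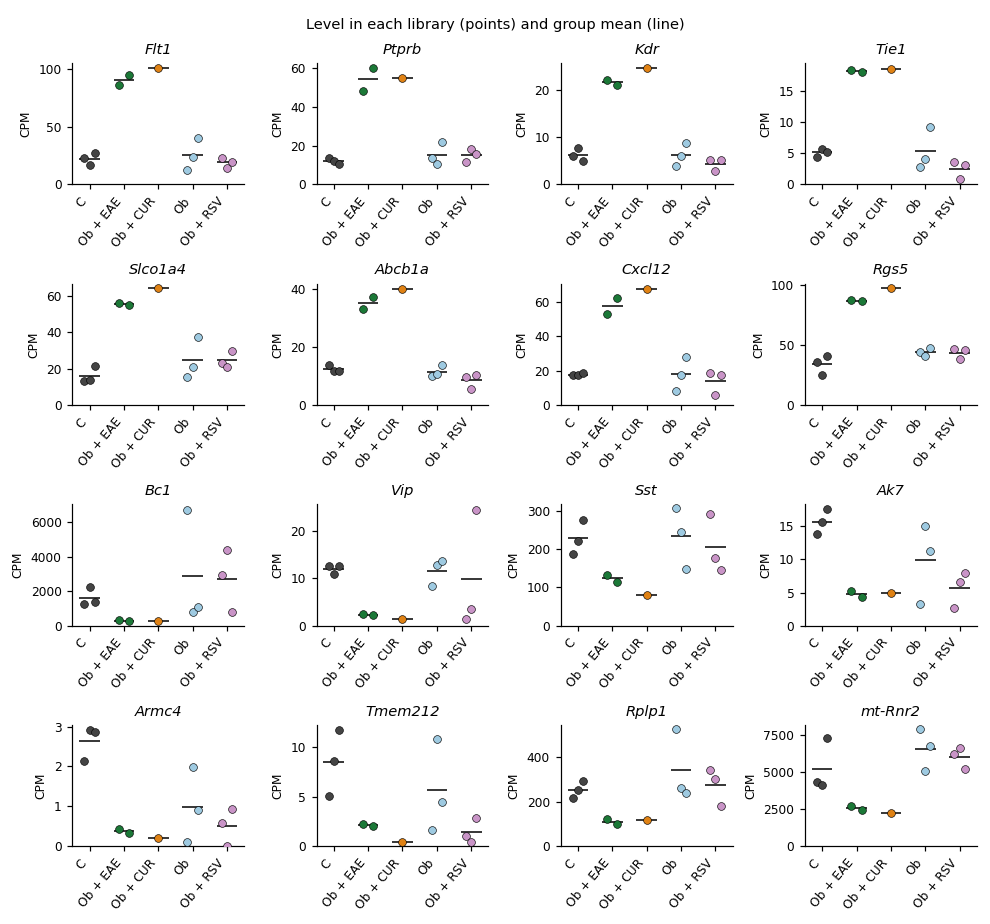
The CPM of 16 genes is plotted for every library, with C in black, Ob + EAE in green, Ob + CUR in orange and, for comparison, Ob in blue and Ob + RSV in pink, and the line is the mean of each group. The 3 treated libraries lie above all 9 others for Flt1 (86.2 to 101 CPM in the treated libraries) and Ptprb and below all 9 for Bc1 (236 to 299 CPM), whereas for Vip and the cilia genes Ak7 and Tmem212 some Ob or Ob + RSV libraries reach as low.

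The promoter of Flt1 is shown because it belongs to the receptor with the clearest rise and shares a short motif with that of Sst, a gene that fell. Each line below gives the 250 bases before the start site on the coding strand, from RefSeq on GRCm38.p6, with the palindrome TGACGTCA, the consensus of the cAMP response element, in capitals. For Flt1 the window is chr5:147726012-147726261 on the minus strand and the motif begins 81 bases before the start. For Sst it is chr16:23890845-23891094 on the minus strand and the motif begins 48 bases before the start.

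Flt1: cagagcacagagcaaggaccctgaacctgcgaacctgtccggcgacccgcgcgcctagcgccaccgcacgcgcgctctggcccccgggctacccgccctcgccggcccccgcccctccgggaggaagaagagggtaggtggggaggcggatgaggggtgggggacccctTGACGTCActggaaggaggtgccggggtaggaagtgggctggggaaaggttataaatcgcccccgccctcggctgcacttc
Sst: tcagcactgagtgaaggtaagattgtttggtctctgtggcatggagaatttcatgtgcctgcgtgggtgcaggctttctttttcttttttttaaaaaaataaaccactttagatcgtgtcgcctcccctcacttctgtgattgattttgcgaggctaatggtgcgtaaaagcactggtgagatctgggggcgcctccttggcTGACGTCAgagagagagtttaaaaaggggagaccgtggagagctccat

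The 8 letters, which read the same on both strands, occur in 588 of 32851 RefSeq promoter windows of 300 bases (1.79%). Of the called genes with a window in that table, 1 of 29 higher genes (Flt1) and 1 of 30 lower genes (Sst) hold them. The windows of Kdr, Tie1, Vip and Cck do not.

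The largest decrease among abundant transcripts was that of Bc1, a short RNA made by RNA polymerase III in neurons and carried into dendrites, where it represses translation. Its level was 1277, 2218 and 1369 CPM in C, 299 and 236 CPM in Ob + EAE and 246 CPM in Ob + CUR, a 6.39-fold decrease (log2FC -2.68, SE 0.22, adjusted p = 0.000742) without any overlap between the groups. In Ob and Ob + RSV it ranged widely, from 799.6 to 6718 CPM, and every treated library was below that range. The call held without any 1 of the 6 libraries but was lost in the fit of 12. The transcript is shown because it has only 168 bases and carries a run of 23 A in its interior, given in capitals. It lies at chr7:144914470-144914637 on the plus strand of GRCm38 (GENCODE vM21), where it is annotated as a single long non-coding RNA gene.

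Bc1: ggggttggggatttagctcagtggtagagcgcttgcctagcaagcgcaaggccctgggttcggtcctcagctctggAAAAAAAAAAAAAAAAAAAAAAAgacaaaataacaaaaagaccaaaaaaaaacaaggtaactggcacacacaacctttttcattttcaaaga

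Some neuronal peptides were lower in the treated libraries. Of 16 tested genes of magnocellular and releasing hormones, 3 were called lower and 0 higher, against 0.224% of all genes called lower. All 16 had a log2FC below 0, with a median of -0.84. Vip, the peptide with which neurons of the suprachiasmatic nucleus, the circadian clock of the brain, signal to each other, had 12.6, 10.9 and 12.5 CPM in C, 2.37 and 2.14 CPM in Ob + EAE and 1.42 CPM in Ob + CUR. The libraries of C were close to each other and the decrease was 6.23-fold (log2FC -2.64, SE 0.26, adjusted p = 0.00233), called in every fit that leaves out a library but not in the fit of 12. Levels in Ob and Ob + RSV ran from 1.37 to 24.4 CPM and so overlapped with both groups. Sst, the peptide that inhibits growth hormone release, had 188, 219.7 and 276 CPM in C, 132 and 115 CPM in Ob + EAE and 80.05 CPM in Ob + CUR (log2FC -1.10, SE 0.19, adjusted p = 0.0267). Its call was lost in each of the 6 fits that leave out a library. Cck, a peptide of neurons of several brain regions, had 71.9, 53.9 and 51.2 CPM in C, 19.8 and 12.4 CPM in Ob + EAE and 30.9 CPM in Ob + CUR (log2FC -1.53, SE 0.28, adjusted p = 0.0322). The call of Cck held in 2 of these 6 fits. In Ob and Ob + RSV, Cck ran from 20.5 to 77.5 CPM and so overlapped with both groups.

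Few other genes of the suprachiasmatic nucleus and of the clock passed. Among 24 such genes, 1 was called lower and 0 higher, with a median log2FC of 0.01. The called gene was Rgs16, a regulator of G protein signaling that is rhythmic in the suprachiasmatic nucleus and also marks the thalamus. It had 52.3, 33.1 and 36.2 CPM in C, 15.3 and 15.3 CPM in Ob + EAE and 10.3 CPM in Ob + CUR (log2FC -1.62, SE 0.23, adjusted p = 0.0132) and was called in 1 of the 6 fits that leave out a library. The clock output peptide Prok2 had 3.66, 1.88 and 2.88 CPM in C, 0.616 and 1.02 CPM in Ob + EAE and 0.945 CPM in Ob + CUR, which did not pass (log2FC -1.75, adjusted p = 0.0965), and neither did Nms (log2FC -2.82, adjusted p = 0.0508). The clock genes Per1 (log2FC -0.26, adjusted p = 0.48), Per2 (log2FC -0.07, adjusted p = 0.897), Arntl (log2FC 0.05, adjusted p = 0.922) and Clock (log2FC 0.40, adjusted p = 0.187) were not called, and the hour of dissection is not known here. Genes of the thalamus, which borders the hypothalamus, had a median log2FC of -0.59 over 14 members, Rgs16 being the 1 called. Tcf7l2, which defines that region, had 91.2, 46.1 and 61.2 CPM in C, 40.9 and 37.9 CPM in Ob + EAE and 19.7 CPM in Ob + CUR (log2FC -1.06, adjusted p = 0.128). Summed thalamus levels were 1162 to 1535 CPM in C and 1031 to 1185 CPM in the treated libraries, and their part in the result for Rgs16 was not tested.

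No peptide of feeding was called. Over 15 tested members the median log2FC was -0.45, with 3 above 0 and 12 below. In the arcuate nucleus, Pomc, the precursor of the satiety peptide alpha-MSH, had 50.8, 62.1 and 72.6 CPM in C, 63.1 and 51.9 CPM in Ob + EAE and 29.4 CPM in Ob + CUR (log2FC -0.39, adjusted p = 0.476). Cartpt, made by the same neurons, had 84.8, 101 and 125 CPM in C, 70.97 and 59.99 CPM in Ob + EAE and 102 CPM in Ob + CUR (log2FC -0.45, adjusted p = 0.308). The hunger peptide Agrp was low, at 0.341, 2.10 and 0.335 CPM in C, 0.142 and 0.418 CPM in Ob + EAE and 0.559 CPM in Ob + CUR (log2FC -1.32, adjusted p = 0.522). Npy, made by the same neurons, was at 23.1, 7.17 and 61.9 CPM in C, 11.6 and 10.3 CPM in Ob + EAE and 26.5 CPM in Ob + CUR (log2FC -0.96, adjusted p = 0.477). Both overlapped between the groups. For Npy, the C libraries alone spanned 7.17 to 61.9 CPM. Gal, a peptide that promotes fat intake, had 51.4, 65.4 and 54.7 CPM in C, 40.9 and 37.3 CPM in Ob + EAE and 22.1 CPM in Ob + CUR (log2FC -0.81, adjusted p = 0.11). Of 26 receptors and signaling genes of leptin, insulin and the feeding peptides, 0 passed, and the leptin receptor Lepr had 3.49, 3.70 and 2.88 CPM in C, 5.87 and 7.71 CPM in Ob + EAE and 9.32 CPM in Ob + CUR, which did not overlap but missed the threshold (log2FC 1.14, adjusted p = 0.0785).

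Some genes of motile cilia fell. Of 20 ependymal cilia genes, 6 were called lower and 0 higher, against 0.224% of all genes called lower. All 20 had a log2FC below 0, with a median of -0.96. Their summed level was 234 to 248 CPM in C and 125 to 137 CPM in the treated libraries, with no overlap, and it was 115 to 281 CPM in Ob and Ob + RSV. Ak7, an adenylate kinase of the ciliary axoneme, had 13.9, 15.7 and 17.6 CPM in C, 5.21 and 4.37 CPM in Ob + EAE and 4.98 CPM in Ob + CUR (log2FC -1.73, SE 0.20, adjusted p = 0.00457). Ttc21a had 12.5, 13.1 and 11.9 CPM in C, 4.83 and 4.27 CPM in Ob + EAE and 6.19 CPM in Ob + CUR (log2FC -1.33, SE 0.22, adjusted p = 0.0205). The dynein light chain Dynlrb2 had 3.58, 8.65 and 7.86 CPM in C, 1.33 and 0.836 CPM in Ob + EAE and 1.59 CPM in Ob + CUR, and C replicate 1 was the lowest of C (log2FC -2.44, SE 0.40, adjusted p = 0.0205).

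The ependymal markers Ccdc153 and Tmem212 were lowest in Ob + CUR. Ccdc153 had 15.9, 20.6 and 18.9 CPM in C, 7.29 and 4.60 CPM in Ob + EAE and 2.15 CPM in Ob + CUR (log2FC -2.02, SE 0.35, adjusted p = 0.0257). Tmem212 had 5.07, 8.65 and 11.7 CPM in C, 2.23 and 2.04 CPM in Ob + EAE and 0.43 CPM in Ob + CUR (log2FC -2.47, SE 0.50, adjusted p = 0.0491). Rarres2, which encodes chemerin and is expressed in tanycytes and ependymal cells, had 17.3, 15.8 and 9.49 CPM in C, 6.49 and 5.76 CPM in Ob + EAE and 5.76 CPM in Ob + CUR (log2FC -1.29, SE 0.25, adjusted p = 0.0425). Further genes of cilia outside the list were called lower. Armc4, which docks the outer dynein arms, was at 2.13, 2.90 and 2.88 CPM in C, 0.426 and 0.325 CPM in Ob + EAE and 0.215 CPM in Ob + CUR (log2FC -3.05, SE 0.48, adjusted p = 0.019). The others included Dnali1 (log2FC -1.43, adjusted p = 0.0398), the axonemal dynein Dnah10 (log2FC -1.04, adjusted p = 0.0331) and Spag8 (log2FC -1.36, adjusted p = 0.025). The master regulator of these cilia, Foxj1, missed the threshold (log2FC -0.98, adjusted p = 0.0851), as did Hydin (log2FC -0.56, adjusted p = 0.286) and Dnah5 (log2FC -0.11, adjusted p = 0.861). These calls were not stable. When 1 library was left out, Ak7 was called in 5 of the 6 fits, Ccdc153 in 2, Dnah10 in 0 and Ttc21a, Dynlrb2, Tmem212, Rarres2, Armc4, Dnali1 and Spag8 in 1 each. None of these 10 genes was called in the fit of 12 libraries. Tanycyte genes had a median log2FC of 0.13 over 15 members with Rarres2 as the sole call, and choroid plexus genes had no call among 15. The choroid plexus sum was 49.8 to 88.5 CPM in C and 83.1 to 97.6 CPM in the treated libraries.

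Most genes of cytosolic ribosomes and of the respiratory chain had a log2FC below 0, and a minority of them passed by adjusted p. Of 47 cytosolic ribosomal protein genes, 46 had a log2FC below 0, with a median of -0.58. By adjusted p alone 9 were lower, against 0.711% of all genes, and 1 of them was past a log2FC of -1. That gene, Rplp1, a protein of the ribosomal stalk, had 215, 254 and 292 CPM in C, 121 and 98.4 CPM in Ob + EAE and 117 CPM in Ob + CUR (log2FC -1.21, SE 0.14, adjusted p = 0.00567). Rps15 (log2FC -0.86, adjusted p = 0.0168) and Rps24 (log2FC -0.93, adjusted p = 0.0168) fell by less than the threshold. Their summed level was 3397 to 4620 CPM in C, 2289 to 2681 CPM in the treated libraries and 3102 to 6761 CPM in Ob and Ob + RSV, so the treated libraries were the lowest of all 12.

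Of 44 nuclear genes of oxidative phosphorylation, 42 had a log2FC below 0 and the median was -0.62. By adjusted p alone 15 were lower, against 0.711% of all genes. Ndufa5, a subunit of complex I, was the 1 past the log2FC minimum, with 75.2, 73.3 and 116 CPM in C, 44.2 and 38.1 CPM in Ob + EAE and 40.2 CPM in Ob + CUR (log2FC -1.15, SE 0.17, adjusted p = 0.0168). Ndufa2 of the same complex had 86.96, 85.7 and 111 CPM in C, 52.6 and 45.8 CPM in Ob + EAE and 48.1 CPM in Ob + CUR (log2FC -0.99, adjusted p = 0.0129). The ATP synthase subunit Atp5e had 93.2, 113 and 106 CPM in C, 57.1 and 49.6 CPM in Ob + EAE and 53.4 CPM in Ob + CUR (log2FC -0.999, adjusted p = 0.0088). Uqcrq of complex III had 125, 127 and 144 CPM in C, 82.3 and 69.2 CPM in Ob + EAE and 69.7 CPM in Ob + CUR (log2FC -0.88, adjusted p = 0.0146). In each of the 4, all treated libraries were below all C libraries. Other genes of this list were not called, such as Ndufs1 (log2FC 0.07, adjusted p = 0.877), Sdha (log2FC 0.07, adjusted p = 0.847), Uqcrc2 (log2FC -0.08, adjusted p = 0.847) and Atp5b (log2FC -0.08, adjusted p = 0.879).

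All 15 genes of the mitochondrial genome had a log2FC below 0, with a median of -0.58. Only the ribosomal RNA mt-Rnr2 was called, with 4302, 4095 and 7308 CPM in C, 2702 and 2407 CPM in Ob + EAE and 2219 CPM in Ob + CUR (log2FC -1.13, SE 0.21, adjusted p = 0.0341), and C replicate 3 was the highest. The mitochondrial transfer RNAs mt-Tc (log2FC -1.49, adjusted p = 0.0232) and mt-Tn (log2FC -1.56, adjusted p = 0.025) were called too. When 1 library was left out, mt-Tc and mt-Tn were called in 1 of the 6 fits and mt-Rnr2 and Ndufa5 in 0. The mitochondrial share of all reads was 5.12 to 7.40% in C and 3.79 to 4.12% in the treated libraries.

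Among the called decreases, 24 were processed pseudogenes, 9 of them named for a ribosomal protein gene, such as Rpl38-ps2, at 158, 189 and 165 CPM in C, 68.6 and 60.7 CPM in Ob + EAE and 72.1 CPM in Ob + CUR (log2FC -1.39, adjusted p = 0.00153), and Rpl34-ps1 (log2FC -1.05, adjusted p = 0.0102). Such copies can share reads with their parent genes and with each other. How such reads were counted is not given in the sources used here, and these genes are not separate observations.

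Transcript length went with these differences. Over 14786 genes with at least 300 reads in the 6 libraries, the correlation across genes of log2FC with log10 of transcript length was 0.457, genes not being independent replicates. The median log2FC went from -0.54 for transcripts of up to 500 bases to 0.34 for those over 8000. The genes called higher had a median length of 5038.5 bases, those called lower 717.5, and all tested genes with a length 2524. Reads on transcripts of up to 1000 bases were 7.44 to 9.86% of the total in C and 5.44 to 6.01% in the treated libraries, which were also below all libraries of Ob and Ob + RSV (7.55 to 12.0%). The labels name 1 library kit and 1 sequencer for all samples and give no date or batch of preparation. The libraries of Ob alone, of mice on the HFD given vehicle, held 8.34 to 12.0%. Whether the length relation came from the preparation or the compounds cannot be told apart, and the part of the diet was not tested.

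With the trend of each library on length and GC content removed, 29 genes were called among 25381 with a length, 26 of them shared with the 116. Of the 45 higher genes, 14 were still called, including Flt1, Kdr, Tie1, Ptprb, Foxf2, Slco1a4, Slco1c1, Abcb1a, Eng, Cxcl12, Rgs5, Podxl, Adgrf5 and Sox18, and their median log2FC over all 45 went from 1.55 to 1.39. Of the 71 lower genes, 12 were still called, including Bc1, Vip, Armc4, Ak7, Ttc21a, Dnah10, Frmpd2 and mt-Rnr2, and the median log2FC over all 71 went from -1.29 to -1.05. The list medians then were 0.88 for vessels, -1.03 for cilia, -0.39 for nuclear oxidative phosphorylation and -0.40 for ribosomal proteins.

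**Figure D3:**
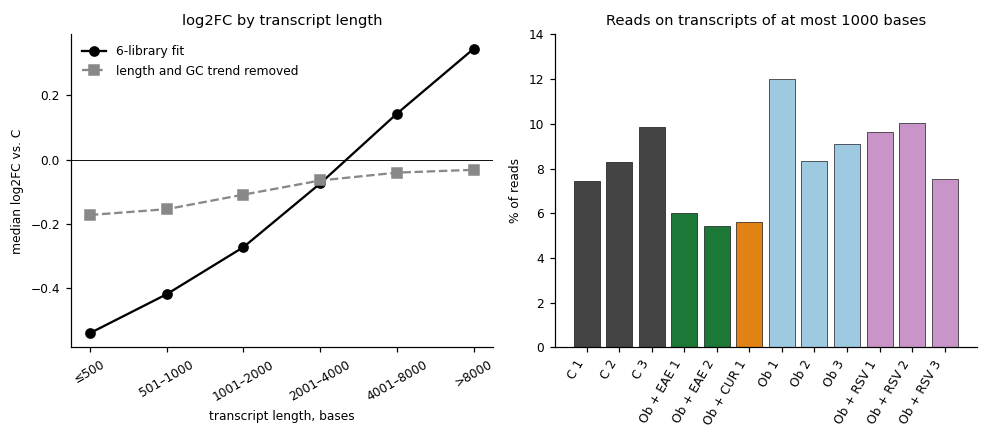
The left panel plots the median log2FC between the treated libraries and C for 6 classes of transcript length, before (black) and after (grey) removal of each library's trend on length and GC content. The right panel gives the percentage of reads on transcripts of up to 1000 bases in each of the 12 libraries, where the 3 treated libraries, at 5.44 to 6.01%, are the lowest.

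The lists that bear on what the compounds are studied for held no call. Of 30 Nrf2 and antioxidant genes, 0 were called and 1, the superoxide dismutase Sod1, was lower by adjusted p alone, with 191, 194 and 237 CPM in C, 136 and 124 CPM in Ob + EAE and 135 CPM in Ob + CUR (log2FC -0.69, SE 0.13, adjusted p = 0.0314). The list had a median log2FC of -0.21 with 24 members below 0. Txn1, thioredoxin, had 52.1, 49.05 and 64.4 CPM in C, 39.7 and 35.4 CPM in Ob + EAE and 38.1 CPM in Ob + CUR (log2FC -0.59, adjusted p = 0.0816). Of 18 genes of sulfur amino acids and hydrogen sulfide, 0 were called, with a median of -0.16. Slc6a6, which carries taurine across the blood-brain barrier and into cells, was higher by adjusted p alone, with 99.4, 97.3 and 84.9 CPM in C, 169 and 186 CPM in Ob + EAE and 184 CPM in Ob + CUR (log2FC 0.89, SE 0.13, adjusted p = 0.0135). In TNF and NF-kB signaling, 0 of 29 genes passed and the median was 0.10. The complement list had 0 of 20 and a median of -0.32, and interferon response with MHC class I had 0 of 22 and a median of -0.06.

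Microglia, the immune cells of the brain, had 1 call among 18 genes and a median log2FC of -0.16. Aif1, the microglial protein Iba1, had 2.94, 6.71 and 6.61 CPM in C, 1.42 and 1.53 CPM in Ob + EAE and 1.68 CPM in Ob + CUR (log2FC -1.84, SE 0.36, adjusted p = 0.0439), with C replicate 1 lower than the other C libraries and a call in 1 of the 6 fits that leave out a library. Other microglial genes were not called, such as Cx3cr1 (log2FC -0.11, adjusted p = 0.792), P2ry12 (log2FC -0.05, adjusted p = 0.94) and Csf1r (log2FC -0.05, adjusted p = 0.922), and the summed level overlapped between C (449 to 493 CPM) and the treated libraries (386 to 462 CPM). Astrocytes had 0 calls of 18, and their sum was 2543 CPM in C replicate 3 against 7088 and 7400 CPM in the other C libraries and 6039 to 7295 CPM in the treated ones. Oligodendrocyte and myelin genes had 0 of 22 and pan-neuronal genes 0 of 17.

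No gene of the lipid lists was called. Of 29 genes of lipolysis and fatty acid oxidation, 0 passed both limits, and the fatty acid binding protein Fabp7 of radial glia and astrocytes was lower by adjusted p alone, with 47.7, 49.7 and 45.04 CPM in C, 31.8 and 27.3 CPM in Ob + EAE and 25.6 CPM in Ob + CUR (log2FC -0.79, SE 0.14, adjusted p = 0.0309). Of 25 genes of cholesterol synthesis and transport, 0 were called, and the cholesterol exporter Abca1 had 46.01, 33.00 and 16.8 CPM in C, 51.2 and 59.8 CPM in Ob + EAE and 62.1 CPM in Ob + CUR (log2FC 0.80, adjusted p = 0.237). Dbi, whose product binds acyl-CoA and acts on GABA-A receptors, was called outside the lists, with 193, 223 and 144 CPM in C, 93.4 and 85.7 CPM in Ob + EAE and 88.99 CPM in Ob + CUR (log2FC -1.11, SE 0.17, adjusted p = 0.0158). The call of Dbi held in 1 of the 6 fits that leave out a library. Of the genes that the study follows under resveratrol, 8 were listed here, which is not its full set, and 7 had reads enough for testing. These 7 genes, among them Rilp (log2FC -0.71, adjusted p = 0.419), had 0 calls. The coactivator Ppargc1b had 3.54, 6.83 and 2.11 CPM in C, 8.996 and 12.5 CPM in Ob + EAE and 7.69 CPM in Ob + CUR (log2FC 1.19, adjusted p = 0.183). That list was chosen by the study on other libraries and the same C libraries.

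Immediate-early genes (0 of 25, median log2FC -0.27), glucocorticoid targets (0 of 20, -0.41) and heat shock and unfolded protein genes (0 of 30, -0.21) had no call. Among their members, Fos had 15.4, 26.7 and 30.5 CPM in C, 13.7 and 14.4 CPM in Ob + EAE and 11.7 CPM in Ob + CUR (log2FC -0.90, adjusted p = 0.102). The glucocorticoid target Sgk1 had 94.2, 73.8 and 19.9 CPM in C, 22.5 and 20.2 CPM in Ob + EAE and 24.1 CPM in Ob + CUR, a level that C replicate 3 shared with the treated libraries (log2FC -1.55, adjusted p = 0.121). Receptor lists were slightly above 0, with medians of 0.30 over 27 glutamate receptor genes and 0.11 over 24 GABA-A and glycine receptor genes and 0 calls in each. With the length and GC trend removed, these medians were -0.0012 and 0.025. Collagens (0 of 23) had 1 gene lower by adjusted p alone, Col5a3 (log2FC -0.999, adjusted p = 0.0337). Of 10 abundant long non-coding RNAs, 18 cortex and hippocampus genes, 15 striatal genes, 25 hypothalamic patterning factors and 8 anterior pituitary genes, 0 were called. In all, 26 of the 36 lists held no call.

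**Figure D4:**
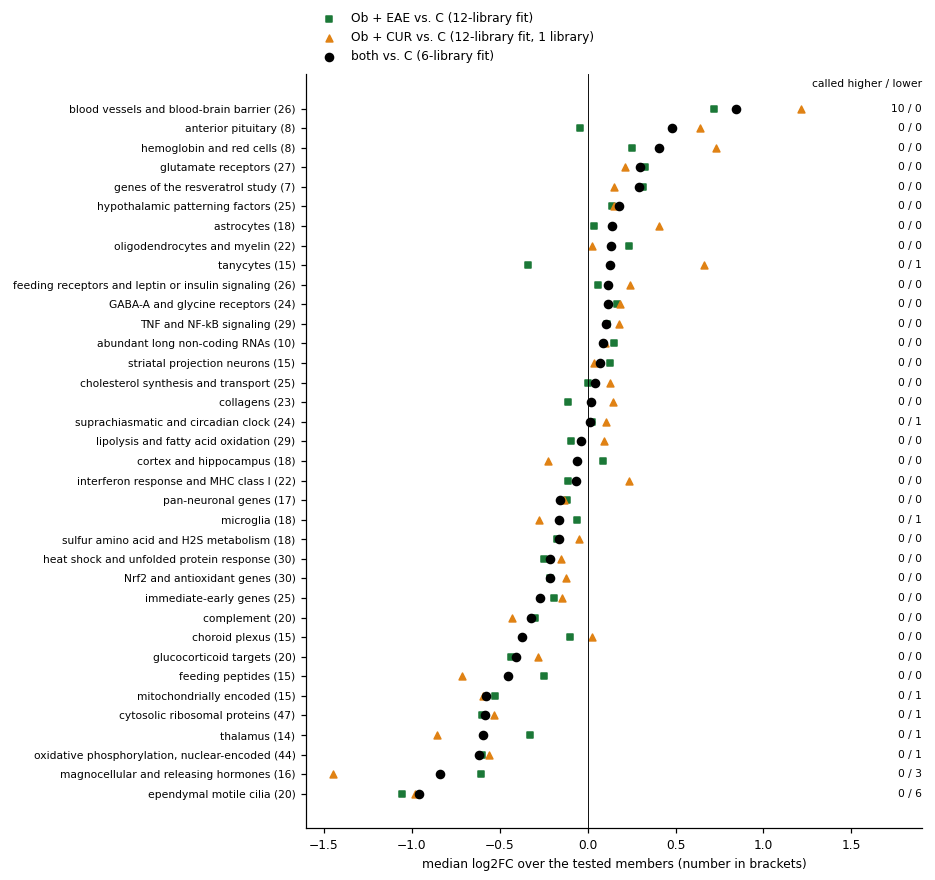
For each of 36 gene lists, with the number of tested members in brackets, the black point is the median log2FC of the pooled treated libraries vs. C in the 6-library fit, the green square that of Ob + EAE vs. C and the orange triangle that of Ob + CUR vs. C in the 12-library fit. The numbers at the right are the members called higher and lower, and vessels stand at the top with a median of 0.84 and 10 called, and ependymal cilia at the bottom with -0.96 and 6 called.

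A gene without counts in C had the largest fitted increase. AC132148.1, annotated as an antisense RNA, was at 0 in all 3 C libraries and at 0.663 and 1.62 CPM in Ob + EAE and 0.902 CPM in Ob + CUR. Against a floor of 3 counts over the C group (0.0485 CPM) it was at least 21.9-fold higher. It had reads enough for testing only through the treated libraries, so its adjusted p of 0.0362 is not read as support. Of the libraries of Ob and Ob + RSV, 1 (Ob + RSV replicate 2, at 3.08 CPM) was as high as the treated ones and the others were at or below 0.33 CPM. Its call held in 1 of the 6 fits that leave out a library, and antisense counts are uncertain without the strand setting.

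Each compound was also set against C alone, in the fit of all 12 libraries with 5 groups. The 2 comparisons share the C libraries, and the single Ob + CUR library was assumed to vary like the other groups, without a replicate check. Ob + EAE vs. C gave 5 calls (0.0138%), all higher and all genes of vessels. These were Ptprb (log2FC 2.14, adjusted p = 0.000261), Flt1 (log2FC 2.00, adjusted p = 0.00395), Slco1a4 (log2FC 1.77, adjusted p = 0.00817), Eng (log2FC 1.51, adjusted p = 0.0119) and Rgs5 (log2FC 1.35, adjusted p = 0.011). Ob + CUR vs. C gave 19 calls (0.0525%), 10 higher and 9 lower. Flt1 (log2FC 2.16, adjusted p = 0.00547), Ptprb (log2FC 2.16, adjusted p = 0.00105), Slco1a4 (log2FC 1.98, adjusted p = 0.00793), Eng (log2FC 1.70, adjusted p = 0.0115), Rgs5 (log2FC 1.52, adjusted p = 0.00976) and Abcb1a (log2FC 1.68, adjusted p = 0.0405) were among the higher, with Utrn, the dystrophin relative utrophin (log2FC 1.49, adjusted p = 0.00976), and Dgkb, a diacylglycerol kinase (log2FC 1.31, adjusted p = 0.0219). The lower genes were Oxt, Avp, Hcrt, Trh, Ucn3, Slc30a3, Zic1, Zic2 and Rgs16.

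The Ob + CUR library departed from both Ob + EAE libraries by more than 1 log2 unit in 61 of 11171 genes with a mean of at least 10 CPM, 35 of them above and 26 below. Neither Ob + EAE library departed from the other treated libraries in any gene by that rule. Of the 61 genes, 48 put Ob + CUR outside all 11 other libraries, 29 above and 19 below. Over all 11171 genes Ob + CUR was above the 11 others in 1519 (13.6%) and below them in 698 (6.25%), and since the 61 were chosen for standing apart, nothing is read from their share. None of the 116 genes called in the pooled comparison was among the 61. Pooled calls favor treated libraries that lie close together and the 61 were chosen for the opposite, so nothing is read from this. With 1 curcumin library, the compound, the library and the stretch of hypothalamus that was dissected cannot be told apart for differences of this kind. In the fit of 12 libraries, 7 genes passed the threshold between Ob + CUR and Ob + EAE (0.0194%), 6 lower and 1 higher.

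Several hypothalamic peptides were among the genes with the lowest levels in Ob + CUR relative to Ob + EAE. Oxt, oxytocin, a hormone of the supraoptic and paraventricular nuclei, was at 461, 739 and 556 CPM in C, 302 and 247 CPM in Ob + EAE and 4.04 CPM in Ob + CUR, and at 202 to 734 CPM in Ob and Ob + RSV. Between Ob + CUR and Ob + EAE it was 67.9-fold lower (log2FC -6.09, SE 0.61, adjusted p = 3.04e-06). Avp, vasopressin, which is made in the same nuclei, had 454, 624 and 784 CPM in C, 309.9 and 249 CPM in Ob + EAE and 8.42 CPM in Ob + CUR and fell 33.2-fold (log2FC -5.05, SE 0.61, adjusted p = 8.25e-05). Both hormones were also at lower levels in the Ob + EAE libraries than in any C library. Their pooled comparison with C, in which Ob + CUR stood far from the other treated libraries, gave no call (log2FC -1.70, adjusted p = 0.403 for Oxt and log2FC -1.74, adjusted p = 0.333 for Avp).

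Hcrt, the orexin precursor of lateral neurons that keep animals awake, had 21.1, 72.03 and 71.9 CPM in C, 56.5 and 42.2 CPM in Ob + EAE and 2.06 CPM in Ob + CUR, so that C replicate 1 was low among the C libraries (log2FC -4.58, SE 0.73, adjusted p = 0.00683). Pmch, the melanin-concentrating hormone of neighboring neurons, was at 241, 229.8 and 364 CPM in C, 297 and 256 CPM in Ob + EAE and 86.2 CPM in Ob + CUR and was not called (log2FC -1.68, SE 0.38, adjusted p = 0.203). Trh, the peptide that drives thyrotropin release, had 85.8, 129.8 and 104 CPM in C, 83.4 and 76.4 CPM in Ob + EAE and 17.1 CPM in Ob + CUR (log2FC -2.23, SE 0.35, adjusted p = 0.00683). All 3 were lowest in Ob + CUR among the 6 libraries. Ucn3, a stress peptide of the hypothalamus, was called against C (log2FC -7.06, adjusted p = 0.00976), with 0.043 CPM in Ob + CUR against 3.07 to 10.9 CPM in C and 3.55 and 4.04 CPM in Ob + EAE. The other calls were Slc30a3, a zinc transporter of synaptic vesicles (log2FC -4.71, SE 0.82, adjusted p = 0.0224), and Vax1, a homeobox factor of the ventral forebrain (log2FC -3.47, SE 0.65, adjusted p = 0.0469).

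Transcription factors that mark positions in the hypothalamus went in both directions. Zic1 was at 100.1, 67.5 and 73.5 CPM in C, 65.9 and 70.1 CPM in Ob + EAE and 11.1 CPM in Ob + CUR. It and Zic2 were lower in Ob + CUR and were called against C (log2FC -2.87, adjusted p = 0.00976 and log2FC -2.53, adjusted p = 0.0219). Nr5a1, the steroidogenic factor that marks the ventromedial nucleus, had 10.2, 12.8 and 22.1 CPM in C, 15.96 and 17.3 CPM in Ob + EAE and 0.43 CPM in Ob + CUR, and it was at 0 in Ob + RSV replicate 3 (log2FC -5.25, SE 1.40, adjusted p = 0.761). Meis2 had 18.8, 20.3 and 18.8 CPM in C, 25.4 and 24.8 CPM in Ob + EAE and 3.14 CPM in Ob + CUR. Fezf1 had 14.3, 14.4 and 22.9 CPM in C, 28.2 and 27.5 CPM in Ob + EAE and 4.08 CPM in Ob + CUR. Both, with Nr2f2, were lower in Ob + CUR than in both Ob + EAE libraries. Other factors were higher in Ob + CUR, and the 25 patterning factors as a list had a median log2FC of 0.15 in Ob + CUR vs. C. Foxb1, which marks the mammillary body, had 12.9, 17.98 and 3.64 CPM in C, 14.2 and 13.1 CPM in Ob + EAE and 57.2 CPM in Ob + CUR (log2FC 2.07, SE 0.66, adjusted p = 1). Bsx, a factor of arcuate neurons, was at 10.4, 10.4 and 14.9 CPM in C, 12.8 and 11.8 CPM in Ob + EAE and 34.6 CPM in Ob + CUR. It was higher in Ob + CUR than in the Ob + EAE libraries without a call. So were Tbx3, at 9.07, 5.58 and 15.5 CPM in C, 10.5 and 9.98 CPM in Ob + EAE and 28.1 CPM in Ob + CUR, and Nkx2-1, which the developing hypothalamus needs, at 34.3, 36.6 and 40.6 CPM in C, 36.1 and 36.7 CPM in Ob + EAE and 87.1 CPM in Ob + CUR. Hdc, which makes histamine in the tuberomammillary nucleus, had 36.9, 67.6 and 51.3 CPM in C, 48.6 and 40.2 CPM in Ob + EAE and 139 CPM in Ob + CUR (log2FC 1.65, SE 0.61, adjusted p = 1).

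The 1 gene called higher was Myo5b, a motor of membrane traffic, at 15.1, 15.1 and 4.46 CPM in C, 5.35 and 7.38 CPM in Ob + EAE and 51.9 CPM in Ob + CUR (log2FC 3.03, SE 0.53, adjusted p = 0.025). The glutamate receptor Grm2 had 53.7, 47.96 and 37.1 CPM in C, 32.5 and 33.1 CPM in Ob + EAE and 117 CPM in Ob + CUR (log2FC 1.84, SE 0.38, adjusted p = 0.107). Also above both Ob + EAE libraries were Col23a1, Cpne9, Rprm, Sfta3-ps and B230323A14Rik. Oxt, Avp, Hcrt and Trh kept their calls in each fit that left out 1 library of C or Ob + EAE. Myo5b and Vax1 lost theirs without C replicate 2 or without either Ob + EAE library, and Slc30a3 without Ob + EAE replicate 2. The called vessel genes were not among the 61, which the choice of both sets favored. Flt1, Kdr, Tie1, Abcb1a and Eng were within 1 log2 unit of both Ob + EAE libraries, and the vessel list median was 0.72 in Ob + EAE vs. C and 1.22 in Ob + CUR vs. C. For magnocellular and releasing hormones the medians were -0.61 and -1.45, and for ependymal cilia -1.05 and -0.98.

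**Figure D5:**
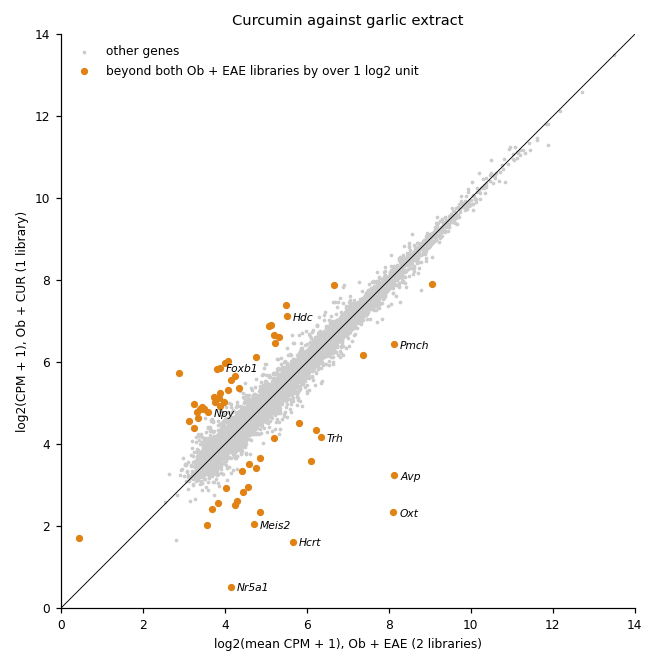
Each point is 1 of 11171 genes, with log2(mean CPM + 1) of the 2 Ob + EAE libraries on the x axis and log2(CPM + 1) of the Ob + CUR library on the y axis, and the line marks equal levels. The 61 genes beyond both Ob + EAE libraries by more than 1 log2 unit are orange, with Oxt (4.04 CPM in Ob + CUR), Avp, Hcrt and Nr5a1 furthest below the line and Foxb1 and Hdc above it.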

How the data were processed

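Whole-tissue mouse hypothalamus RNA was sequenced in 12 stranded poly(A) libraries, and the values used are the counts per gene that the authors deposited, made with HISAT2 v2.0.5 and featureCounts v1.5.0-p3 on GRCm39. The strand setting, annotation release and treatment of multiply aligned reads were not given in the sources used here. Of 78334 gene IDs, 51486 (65.7%, 98.1% of the counts) were matched to a symbol, and lengths and GC contents were taken from GENCODE vM21. CPM is counts per 1000000 of the library total.

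Genes with at least 10 reads in total were tested with edgeR 4.0.16 (glmQLFit, glmQLFTest, TMM scaling) in R 4.3.3, in 6 libraries and 2 groups with 4 residual degrees of freedom, and in 12 libraries and 5 groups with 7 for each compound alone. Calls require a p below 0.05 after Benjamini-Hochberg adjustment together with a log2FC of 1 or more upward or downward. The SE is the log2FC over the square root of F. An exact permutation test of 3 against 3 libraries cannot go below p = 0.1 and was not used. That each library is 1 mouse is stated for C, Ob and Ob + RSV. For Ob + EAE the labels number 2 separate samples. If they were technical repeats, their spread would not be one between mice, and the p-values would rest on it in part.

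Members and the 36 lists were chosen with earlier results of these data known. Named genes were the 10 largest non-overlapping changes per direction and up to 3 members of each list by p. Also named were 8 genes each way for Ob + CUR, fixed peptides and 8 of the genes followed under resveratrol. Other called genes and list members were named after their values were seen. Some genes are not reported here. Alternatives covered scaling, filters, DESeq2 1.42.0, the model, a replicate block and leaving out each library. The removal of the length and GC trend was added after seeing the data. On simulated counts of the 6 libraries (29942 genes tested), changes were set only in genes with a mean of at least 50 reads. Of these, 18 of 50 were recovered at a 2-fold increase, 50 of 50 at 4-fold, 21 of 50 at a fold of 0.5 and 46 of 50 at 0.25. The simulated spread followed a smooth trend, so the recovery does not carry over to genes with fewer reads or to outlying libraries.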

Additional observations from a re-analysis of the deposited data

Results flagged for a closer look

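Between the Ob + CUR library and the 2 Ob + EAE libraries, 7 genes passed the threshold in the fit of 12 libraries, in which the spread of the single Ob + CUR library is taken from the other groups. The log2FC was -6.09 for Oxt, -5.05 for Avp, -4.58 for Hcrt, -4.71 for Slc30a3, -3.47 for Vax1, -2.23 for Trh and 3.03 for Myo5b. Ob + CUR is 1 library, so this difference has no replicate check and the compound, the library and the tissue dissected cannot be told apart. Groups of 3 libraries or fewer were not searched for single outlying samples.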

How the results depend on the processing

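The 116 calls of the pooled comparison became 111 with RLE scaling, 116 with upper quartile scaling, 107 with edgeR's expression filter and 98 with the mean of separate coefficients for the compounds. They became 504 with genes of at least 1 read, 361 with DESeq2, 286 without a log2FC minimum, 1440 with unadjusted p, 13 in the fit of 12 libraries, 29 with the length and GC trend removed and 13 to 266 when 1 library was left out. The cause of these shifts was not tested. Replicate numbers were checked as pairs of C and Ob + EAE libraries, and deviations from the group means correlated at -0.18 for number 1 and 0.078 for number 2. Same-numbered Ob and Ob + RSV libraries correlated at 0.45, 0.064 and 0.52, and Ob + EAE replicate 1 at 0.32 with Ob replicate 1 and 0.36 with Ob + RSV replicate 1. Same-numbered C and Ob libraries correlated at -0.0044, 0.27 and 0.26. Not every pair was above 0.1, so the main fits treat the libraries as sharing only a number. Whether a number marks a shared batch or dissection was not tested. With the replicate block, 394 genes were called in the pooled comparison, 279 in Ob + EAE vs. C, 416 in Ob + CUR vs. C and 52 in Ob + CUR vs. Ob + EAE.

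The 5 calls of Ob + EAE vs. C became 27 in 6 libraries, 1 with the expression filter, 133 with at least 1 read, 30 with DESeq2, 516 with unadjusted p and 1 to 9 when 1 library was left out. The 19 calls of Ob + CUR vs. C became 52, 4, 124, 49 and 566 under the same alternatives, and 11 to 26 when 1 library was left out. The 7 calls of Ob + CUR vs. Ob + EAE became 14, 2, 44, 21 and 140, and 5 to 12. A fit without Ob + CUR replicate 1 gives no value for Ob + CUR. Departures of Ob + CUR numbered 147 at 1 CPM and 60 with TMM-scaled CPM, and the same rule gave 20, 19 and 358 for C replicates 1, 2 and 3.

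Of 2186 values of named genes under these alternatives, 1897 kept direction and side of the threshold, 180 lost a call, 102 gained one and 7 turned direction. Kcnq1ot1 turned to -0.51 with the length and GC trend removed, and M6pr-ps to -0.072 with the replicate block. When 1 library was left out, M6pr-ps ranged from -0.043 (without C replicate 3) to 0.735, Lta from -0.904 to 0.088 (without Ob + CUR), Gbgt1 from -0.133 (without C replicate 2) to 0.708, Agrp from -1.73 to 0.112 (without C replicate 2) and Npy from -1.51 to 0.017 (without C replicate 3). None of these genes was called. At 3 libraries per group, 18 of 50 simulated 2-fold increases were called and 34 of 50 passed by adjusted p alone, a true 2-fold change lying on the log2FC minimum. These were genes with a mean of at least 50 reads.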

Other observations

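Several called genes belong to none of the groups described above. Among the increases were Prom1, a membrane protein of stem cells and glia (log2FC 1.66, adjusted p = 0.0168), the kinases Hipk2, at 40.9, 42.6 and 26.6 CPM in C, 65.2 and 109 CPM in Ob + EAE and 96.4 CPM in Ob + CUR (log2FC 1.25, adjusted p = 0.0277), and Dgki, at 11.5, 5.12 and 6.80 CPM in C, 16.5 and 29.02 CPM in Ob + EAE and 22.4 CPM in Ob + CUR (log2FC 1.48, adjusted p = 0.0491), and the interferon-related Slfn5 (log2FC 1.56, adjusted p = 0.0246). Among the decreases were Tnnt1, the slow skeletal troponin T, at 12.4, 5.06 and 7.28 CPM in C, 2.56 and 2.32 CPM in Ob + EAE and 1.20 CPM in Ob + CUR (log2FC -2.07, adjusted p = 0.0394), the G protein subunit Gng13, at 12.1, 17.1 and 10.1 CPM in C, 4.97 and 5.20 CPM in Ob + EAE and 5.07 CPM in Ob + CUR (log2FC -1.40, adjusted p = 0.0246), the surface protein Cd24a, at 25.3, 31.3 and 30.1 CPM in C, 16.6 and 13.00 CPM in Ob + EAE and 10.6 CPM in Ob + CUR (log2FC -1.14, adjusted p = 0.0232), and the homeobox gene Barx2 (log2FC -1.45, adjusted p = 0.0483). Hipk2 and Dgki were lowest of the treated libraries in Ob + EAE replicate 1, and Cd24a and Tnnt1 in Ob + CUR. When 1 library was left out, Hipk2 was called in 2 of the 6 fits. Prom1, Dgki, Slfn5, Tnnt1, Gng13, Cd24a and Barx2 were called in 1 each. None of these genes was called in the fit of 12 libraries or with the length and GC trend removed.

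Some genes of neighboring tissue differed among the C libraries. The pituitary hormone Gh was at 3.71, 0 and 8.91 CPM in C, 0.0947 and 0.139 CPM in Ob + EAE and 0 CPM in Ob + CUR (log2FC -5.71, adjusted p = 0.0888), and prolactin, Prl, was at 0.895, 0 and 4.84 CPM in C, 0.237 and 0.139 CPM in Ob + EAE and 0 CPM in Ob + CUR (log2FC -3.91, adjusted p = 0.221). Slc17a7, the glutamate transporter of cortical neurons, was at 28.5, 6.20 and 5.42 CPM in C, 5.92 and 4.92 CPM in Ob + EAE and 0.73 CPM in Ob + CUR (log2FC -1.86, adjusted p = 0.267). C replicate 1 was highest for Slc17a7 and C replicate 3 for Gh and Prl, and C replicate 2 had none of either hormone.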
